A study of Mus musculus with 4 samples.

Results

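A set of 10 transcription factors known for their part in switching on the genome of the mouse embryo was followed in 4 RNA libraries of late 2-cell embryos. They are Klf17, Klf4, Klf5, Nr5a2, Rarg, Tfap2c, Gabpa, Nfya, Yy1 and Ctcf, chosen by name, and they are 10 of the 47445 gene identifiers in the deposited tables. Each had 1 row in every table, and all 10 were among the 12390 genes tested, which had at least 1 FPKM in at least 2 libraries. FPKM scales fragments to transcript length and to the mapped fragments of the library, so levels can be set side by side between genes.

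All embryos were from C57BL/6N mice, with females 8 weeks old. The study asked what becomes of the embryo when Uqcc3, an assembly factor of respiratory complex III, is depleted. Of the libraries, 2 came from embryos injected with an siRNA against Uqcc3 and 2 were controls. The protocol text gives the controls a negative-control siRNA, with 5 µM injected at 8 hpi in both arms, while their treatment label reads "none" and the design text calls them normal embryos. Only injected embryos of normal morphology were taken, and how many embryos went into each library is not stated. The protocol names a single siRNA product against Uqcc3. The labels do not say that the libraries of a group came from separate mice or days, so p-values here reflect only how far these libraries differ, and that spread may be technical.

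In the mouse embryo most RNA of the zygote was made in the oocyte, and the embryo's own genes are switched on in a major wave at the 2-cell stage. Some of the factors that take part are general and act in most cells. NF-Y, of which Nfya is the sequence-specific subunit, binds the CCAAT box of promoters, Gabpa is an ETS-family factor of housekeeping promoters, Yy1 joins promoters with enhancers, and Ctcf sets the borders of chromatin loops. The others are the orphan nuclear receptor Nr5a2, the retinoic acid receptor Rarg, the AP-2 factor Tfap2c, and the zinc finger proteins Klf4, Klf5 and Klf17. These Klf proteins bind GC-rich and CACCC-like sites.

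The regions just upstream of 3 of these genes are shown because Nfya had the largest difference between the groups, Klf4 the largest difference between the siRNA libraries, and Klf17 is the most abundant of the 3 Klf genes in the controls. Promoter sequences from RefSeq (build GRCm38.p6) were found for 8 of the 10 genes. The capitals mark matches to the letters CCAAT (NF-Y), GGGNGTGG (KLF) or GCCNNNGGC (TFAP2), searched on both strands with 5 further motifs. Written 5′ to 3′, the runs are chr4:117765667-117765916 (minus strand) for Klf17, chr4:55532476-55532725 (minus strand) for Klf4, and chr17:48409907-48410070 (minus strand) for Nfya.
Klf17: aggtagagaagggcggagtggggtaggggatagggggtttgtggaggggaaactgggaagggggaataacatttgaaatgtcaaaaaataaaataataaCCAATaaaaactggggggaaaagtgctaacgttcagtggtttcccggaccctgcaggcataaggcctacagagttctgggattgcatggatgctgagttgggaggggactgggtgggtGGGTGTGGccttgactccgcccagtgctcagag
Klf4: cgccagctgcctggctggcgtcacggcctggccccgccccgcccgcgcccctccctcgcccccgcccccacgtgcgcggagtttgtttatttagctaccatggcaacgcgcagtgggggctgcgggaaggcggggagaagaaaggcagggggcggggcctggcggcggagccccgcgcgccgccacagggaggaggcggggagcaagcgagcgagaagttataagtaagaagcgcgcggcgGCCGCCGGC
Nfya: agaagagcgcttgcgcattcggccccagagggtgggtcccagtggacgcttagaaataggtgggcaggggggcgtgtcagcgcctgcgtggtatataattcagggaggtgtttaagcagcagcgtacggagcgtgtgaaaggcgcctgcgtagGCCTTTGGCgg

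Klf17 held a CCAAT match at positions -151 to -147 from its RefSeq start site and a KLF match at -33 to -26. Klf4 held a TFAP2 match at -9 to -1, and the run of Nfya a TFAP2 match at -97 to -89 from the first of its 3 RefSeq start sites. From that site Nfya held 1 more match before its start site, to the KLF letters at -62 to -55, which lies past the end of the run shown. The Gabpa promoter held CTTCCGG, its own ETS letters (CCGGAAG) on the reverse strand, at -93 to -87, and the YY1 letters GCCATNTT as GCCATCTT at -67 to -60. Of all 32851 promoters in the table, 37.4% held the NF-Y letters, 17.6% the KLF letters, 16.6% the TFAP2 letters, 8.86% the GABPA letters and 6.05% the YY1 letters. Matches to short letters are thus common and describe sequence only.

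Uqcc3 transcript stood at 147 and 211 FPKM in the controls (replicates 1 and 2) and at 23.7 and 19.8 FPKM in the siRNA libraries (replicates 1 and 2), so the target was lower in both siRNA libraries. The depth implied by the deposited bounds was 11200000 to 18100000 fragments, lower after siRNA than in either control. Markers of the 2-cell embryo were present, with 10 to 13 of 14 at 1 FPKM or more in each library, and their summed level was 1029 and 1332 FPKM in the controls, against 679 and 600.2 FPKM after siRNA. Oocyte markers were present too, with 9 or 10 of 10 at 1 FPKM or more in each library. Their summed level was 1772 and 2097 FPKM in the controls, against 1683.5 and 1315 FPKM after siRNA. Most of it was Oosp1 (1524 and 1795 FPKM in the controls, against 1401 and 859 FPKM after siRNA). The median log2 difference of the 10 oocyte markers was 0.18, with 2 below and 2 above both controls in each siRNA library. The FPKM of all genes summed to 682974 and 695428 in the controls, against 596011 and 436400 after siRNA. Markers of the other cell types were low but not absent. In the controls and then after siRNA their summed levels were 3.47, 14.1, 8.84 and 0.882 FPKM for 12 cumulus and granulosa markers, and 26.5, 40.3, 47.1 and 22.6 FPKM for 9 sperm markers. They were 35.1, 34.5, 36.0 and 9.52 FPKM for 8 blood markers and 2.37, 11.8, 12.6 and 5.00 FPKM for 8 blastocyst markers. Among the highest were Ldhc (15.9 to 22.4 FPKM), Hba-a1 (up to 18.8 FPKM), Pgk2 (up to 17.2 FPKM) and Tnfaip6 (up to 14.1 FPKM). Hba-a1 was at 0 in siRNA replicate 2. Cdx2, Sox17, Amh, Fshr and Akap4 were listed at 0 in every library. One library stood apart: siRNA replicate 2 had 9771 genes at 1 FPKM or more against 11818 to 12202 in the others, correlated with them at no more than 0.651 across genes, and held 14506 FPKM of the ribosomal RNA gene Rn18s-rs5 against 183 to 1023 FPKM. Each factor is therefore given in each siRNA library on its own as well, and results with a library left out are given below. Why this library stood apart was not tested. In libraries of whole embryos, fewer cells of a type and less RNA per cell cannot be told apart.

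None of the 10 factors passed an adjusted p of 0.05 in limma, where 0 of the 12390 tested genes (0%) passed and 738 (5.96%) had an unadjusted p under 0.05, Nfya among them. Nfya, Gabpa and Rarg were under both controls in each siRNA library, 3 of 10 factors beside 30.0% of all tested genes. Klf5 and Yy1 lay above both controls in both, 2 of 10 beside 8.60% of all tested genes. In the remaining 5 the groups overlapped. The share of the factors that were lower was thus that of all genes. Under TPM, median-of-ratios and quantile scaling 2, 3 and 2 factors were lower in both siRNA libraries (21.4%, 19.8% and 18.7% of all tested genes), and 4, 5 and 5 were higher (13.2%, 16.0% and 16.5%). The fold change of no factor turned its sign under these scalings. Differences are on the log2(FPKM + 1) scale throughout and are siRNA minus control. Their median was -0.21 over the 10 factors and -0.39 over all tested genes, which scaling by TPM, median-of-ratios or quantiles moved to -0.08, -0.08 and 0.01. Without siRNA replicate 1, leaving siRNA replicate 2 as the lone siRNA library, 4 factors passed (Nfya lower, Klf4, Tfap2c and Yy1 higher), beside 11.9% of all tested genes. Of all tested genes 2.24% passed as higher and 9.68% as lower there, and without siRNA replicate 2 no gene passed in limma, where 1008 had an unadjusted p under 0.05.

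**Figure D1:**
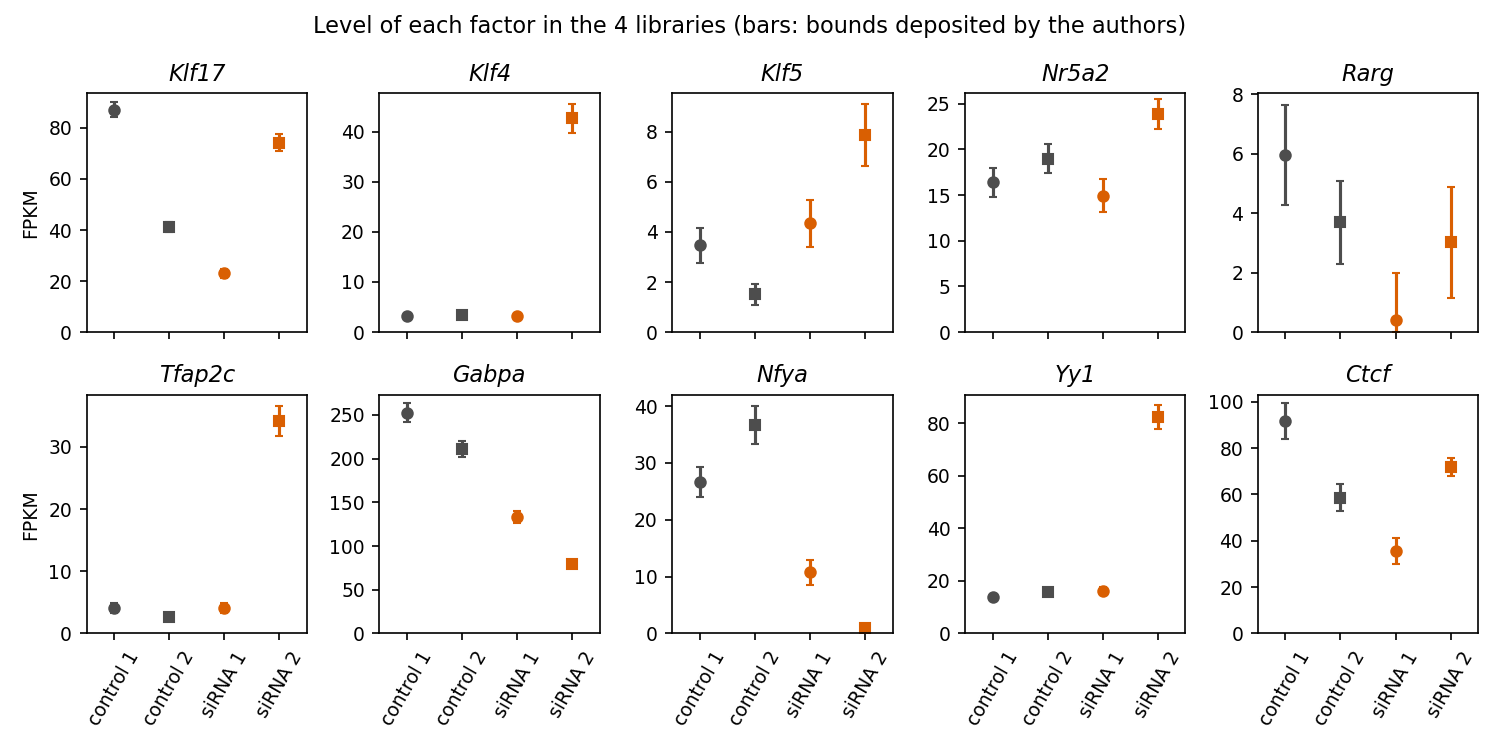
Level of each factor in FPKM (vertical axes from 0, scaled per gene) in the control (grey) and Uqcc3 siRNA (orange) libraries, with circles for replicate 1, squares for replicate 2 and bars for the bounds deposited by the authors. Nfya and Gabpa lie under both controls in each siRNA library, while Klf4, Tfap2c and Yy1 are high in siRNA replicate 2 alone.

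Nfya lies on chromosome 17 from 48386885 to 48409906 (mm10, minus strand), and its longest annotated transcript has 9 exons. It stood at 26.7 and 36.7 FPKM in the controls (replicates 1 and 2) and at 10.8 and 0.898 FPKM in the siRNA libraries (replicates 1 and 2). Each siRNA library lay below both controls. The authors' bounds of the siRNA libraries (8.60 to 12.9 and 0.166 to 1.63 FPKM) did not reach those of the controls (24.1 to 29.2 and 33.3 to 40.0 FPKM). The bounds of the controls did not reach each other either, so they do not measure the spread between libraries. Control libraries averaged 31.7 ± 7.08 FPKM and siRNA libraries 5.83 ± 6.97 FPKM (SD, n = 2 each). Its log2 fold change was -2.77 (SE 1.06, adjusted p = 0.745 in limma), the largest in size of the 10. It was -1.46 in the first siRNA library and -4.09 in the second against the controls. The value of siRNA replicate 2 rests on about 6.0 implied fragments, against 99.0 in siRNA replicate 1 and 428 and 487 in the controls.

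The other NF-Y subunits were measured too. Nfyb and Nfyc form the histone-fold pair that Nfya joins to bind DNA. Nfyb stood at 39.1 and 48.6 FPKM in the controls, against 11.9 and 42.9 FPKM after siRNA. Nfyc stood at 15.8 and 13.1 FPKM in the controls, against 7.72 and 12.4 FPKM after siRNA. In siRNA replicate 1 all of the subunits were low, whereas in siRNA replicate 2 Nfyb and Nfyc were near their control levels and Nfya was not. The ratio of Nfya to Nfyb in FPKM was 0.682 and 0.754 in controls, 0.902 in the first siRNA library and 0.0209 in the second.

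Gabpa (chromosome 16, 84834925 to 84863779, plus strand, 10 exons in its longest transcript) was the most abundant of the 10 factors in the controls. Its level was 252 and 211 FPKM in the controls (replicates 1 and 2) and 133 and 79.6 FPKM in the siRNA libraries (replicates 1 and 2). The groups did not overlap. The authors' bounds were 126 to 140.6 and 75.2 to 84.0 FPKM with siRNA, and 241 to 264 and 202 to 220 FPKM in controls. The bounds of the controls did not overlap each other either, so they do not measure the spread between libraries. The siRNA mean was 46.0% of the control mean (107 ± 38.1 against 232 ± 29.3 FPKM, SD, n = 2 each), and the log2 fold change was -1.16 (SE 0.61, adjusted p = 0.745 in limma). Against the controls it was -0.79 in the first siRNA library and -1.52 in the second, and -0.65 to -0.77 under TPM, median-of-ratios or quantile scaling.

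Gabpa shares 701 bases with Atp5j, an ATP synthase subunit gene on the opposite strand. Reads from that stretch cannot be told apart, since no strand-specific counting is stated. Atp5j stood at 208 and 185 FPKM in the controls, against 95.4 and 65.3 FPKM after siRNA, so both genes of the pair were lower in both siRNA libraries. Gabpb1, the subunit that carries the activation domain of the GABP complex, stood at 246 and 139 FPKM in the controls, against 89.5 and 125 FPKM after siRNA. Its paralog Gabpb2 stood at 26.6 and 64.2 FPKM in the controls, against 19.2 and 5.85 FPKM after siRNA. All 3 GABP genes lay under both controls in each siRNA library, as did 30.0% of all tested genes, and none passed the test.

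**Figure D2:**
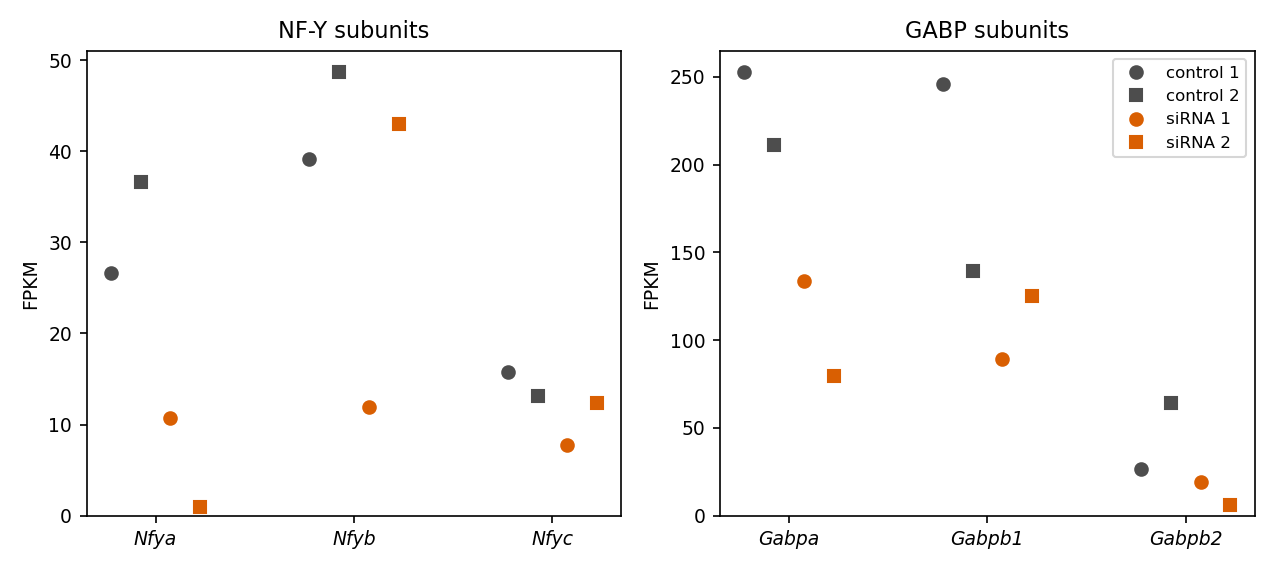
FPKM of the NF-Y subunit genes (left) and the GABP subunit genes (right) in each control (grey) and siRNA (orange) library, with circles for replicate 1 and squares for replicate 2. In siRNA replicate 2, Nfya is at 0.898 FPKM while Nfyb is at 42.9 FPKM and Nfyc at 12.4 FPKM.

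Yy1 (chromosome 12, 108792973 to 108816632, plus strand) stood at 13.9 and 15.9 FPKM in the controls (replicates 1 and 2), and at 16.1 and 82.4 FPKM in the siRNA libraries (replicates 1 and 2). Both siRNA libraries lay above both controls, but siRNA replicate 1 did so by less than the width of the authors' bounds (14.5 to 17.7 FPKM). Its log2 fold change was 1.25 (SE 0.92, adjusted p = 0.772 in limma). This splits into 0.11 in the first siRNA library and 2.40 in the second. The paralog Yy2, an intronless copy of the Yy1 sequence, showed the opposite order, with 45.1 and 106 FPKM in the controls, against 24.1 and 22.9 FPKM after siRNA. Fragments of such copies can be assigned to either gene, so these levels are uncertain. Yy1 and Yy2 thus differed in direction within siRNA replicate 2.

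Ctcf (chromosome 8, 105636568 to 105682922, plus strand, 12 exons in its longest transcript) stood at 91.7 and 58.5 FPKM in the controls, against 35.7 and 71.9 FPKM after siRNA. The groups overlapped, since siRNA replicate 2 lay between the controls. Its log2 fold change was -0.52 (SE 0.69, adjusted p = 0.865 in limma), and against the controls it was -1.02 in the first siRNA library and -0.03 in the second. The short gene Agrp lies on the opposite strand within the Ctcf locus, over 826 shared bases, and stood at 10.4 and 5.29 FPKM in the controls, against 7.27 and 0.601 FPKM after siRNA. The germline paralog Ctcfl stayed under 1 FPKM in every library and was not tested.

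Among the factors outside the general group, Nr5a2 had the smallest difference between the groups. Nr5a2 (chromosome 1, 136842571 to 136960448, minus strand) stood at 16.4 and 19.0 FPKM in the controls (replicates 1 and 2) and at 14.9 and 23.9 FPKM in the siRNA libraries (replicates 1 and 2). The siRNA libraries lay on either side of the controls. The log2 fold change was 0.09 (SE 0.76, adjusted p = 0.986 in limma), and it was -0.23 in the first siRNA library and 0.42 in the second.

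Rarg (chromosome 15, 102234938 to 102257517, minus strand) stood at 5.95 and 3.69 FPKM in the controls, against 0.402 and 3.02 FPKM after siRNA. Both siRNA libraries lay below both controls, but the authors' bounds of siRNA replicate 2 (1.16 to 4.87 FPKM) covered the value of control replicate 2. The log2 fold change was -1.27 (SE 1.00, adjusted p = 0.781 in limma), with -2.03 in the first siRNA library and -0.51 in the second. Implied fragments were 49.7 and 27.8 in controls and 10.5 in siRNA replicate 2, and the level in siRNA replicate 1 corresponds to less than 1 fragment. Under TPM or quantile scaling the groups overlapped.

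Tfap2c (chromosome 2, 172549593 to 172558622, plus strand) stood at 4.11 and 2.66 FPKM in the controls, against 4.07 and 34.2 FPKM after siRNA. Of the libraries, 3 were alike and siRNA replicate 2 was 8.32 times the highest of them, with 776 implied fragments there against 78.3 to 121 in the others. The log2 fold change was 1.63 (SE 1.16, adjusted p = 0.768 in limma). It was 0.23 in the first siRNA library and 3.02 in the second.

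Klf4 (chromosome 4, 55527143 to 55532466, minus strand) showed the same split in a sharper form. Its level was 3.17 and 3.33 FPKM in controls and 3.20 FPKM in siRNA replicate 1, values that lie within one another's bounds, and 42.6 FPKM in siRNA replicate 2. That is 12.8 times the highest of the other libraries, with bounds of 39.8 to 45.5 FPKM and 913 implied fragments. The log2 fold change was 1.67 (SE 1.25, adjusted p = 0.774 in limma). It was -0.02 in the first siRNA library and 3.36 in the second. Klf4 lay above 29.5% and 32.5% of the tested genes in the controls, above 35.5% in siRNA replicate 1 and above 85.6% in siRNA replicate 2. This rank does not depend on how the libraries are scaled to each other. It does depend on the other genes of the library, and fewer genes reached 1 FPKM in siRNA replicate 2 (9771 against 11818 to 12202).

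Klf5 (chromosome 14, 99298691 to 99313405, plus strand), a factor of the early inner cell mass and trophectoderm, stood at 3.46 and 1.50 FPKM in the controls, against 4.34 and 7.87 FPKM after siRNA. Both siRNA libraries lay above both controls, though the bounds of siRNA replicate 1 (3.39 to 5.28 FPKM) overlapped those of control replicate 1 (2.76 to 4.16 FPKM). Its log2 fold change was 1.04 (SE 0.99, adjusted p = 0.811 in limma), with 0.68 and 1.41 in siRNA replicates 1 and 2, so that the siRNA libraries pointed the same way.

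Klf17 (chromosome 4, 117757836 to 117765648, minus strand), a factor of the first cleavage stages, has 1 annotated transcript of 3 exons. It stood at 87.1 and 41.1 FPKM in the controls (replicates 1 and 2) and at 23.0 and 74.2 FPKM in the siRNA libraries (replicates 1 and 2). The difference of control replicate 2 from control replicate 1 was -1.07 on the log2 scale, and 26.9% of tested genes differed by at least as much between them. The log2 fold change was -0.52 (SE 0.80, adjusted p = 0.887 in limma), and it was -1.34 in the first siRNA library and 0.31 in the second. Among the 3 Klf genes the most abundant in controls, Klf17, was low in siRNA replicate 1 and within the control range in siRNA replicate 2. Klf4 and Klf5, at a few FPKM in controls, were highest in siRNA replicate 2.

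The order of the levels differed between the libraries. In the controls, by mean FPKM, Gabpa (232) stood first, then Ctcf (75.1), Klf17 (64.1), Nfya (31.7), Nr5a2 (17.7), Yy1 (14.9), Rarg (4.82), Tfap2c (3.39), Klf4 (3.25) and Klf5 (2.48). The control values of Ctcf and Klf17 overlapped, and each of the 4 lowest overlapped its neighbour in the order. In siRNA replicate 1 Gabpa, Ctcf and Klf17 were again the highest, and Nfya had moved below Yy1 and Nr5a2. In siRNA replicate 2 Yy1 (82.4 FPKM), Gabpa (79.6), Klf17 (74.2) and Ctcf (71.9) lay close together, Klf4 and Tfap2c ranked above Nr5a2, and Nfya was last.

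The siRNA libraries differed from each other by a median of 1.58 on the log2 scale over the 10 factors, beside 1.28 over all tested genes. The controls differed by 0.46 and 0.60 in the same order. Klf4, Tfap2c and Yy1 were at least 4-fold above the highest of the other 3 libraries in siRNA replicate 2, 3 of 10 factors beside 3.83% of all tested genes. Nfya was at least 4-fold below the lowest of the others, 1 of 10 beside 10.7% of all tested genes. This comparison was chosen after the values were seen, with folds taken on FPKM + 1. In siRNA replicate 1, 6 of 10 factors lay below both controls (48.3% of all tested genes) and 2 above both (20.6%). In siRNA replicate 2, 3 lay below (50.5%) and 5 above (32.0%).

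**Figure D3:**
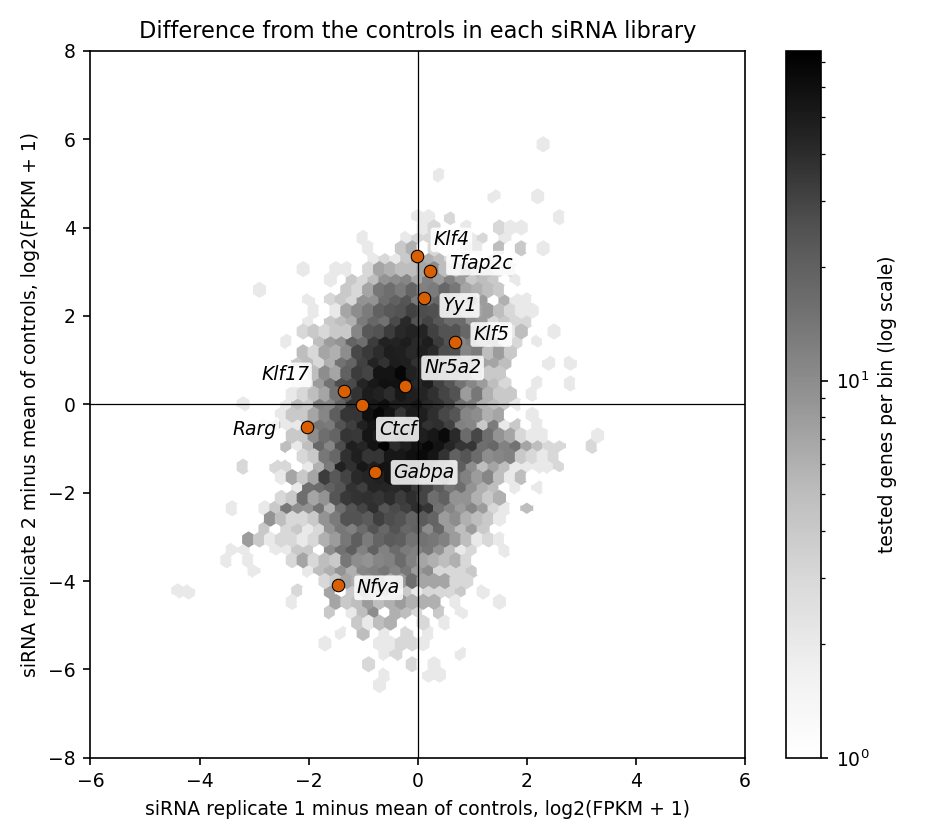
Difference from the mean of the controls on the log2(FPKM + 1) scale in siRNA replicate 1 (horizontal) and siRNA replicate 2 (vertical), with the 10 factors in orange over the tested genes in grey (darker bins hold more genes, log scale, and a few genes beyond the axes are not drawn). Klf4, Tfap2c and Yy1 lie near 0 on the horizontal axis and between 2.40 and 3.36 on the vertical axis, and Nfya is low on both.

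Transcript length moved with the level in siRNA replicate 2. All 10 factors have a longest annotated transcript of 2400 bases or more. Over the 6812 tested genes at or above that length the median difference to the controls came to 0.0062 in the second siRNA library and -0.27 in the first. Over the 5540 shorter genes it was -1.14 and -0.36. The medians of the 10 factors were 0.36 in the second siRNA library and -0.51 in the first. The part of length in these differences was not tested.

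**Figure D4:**
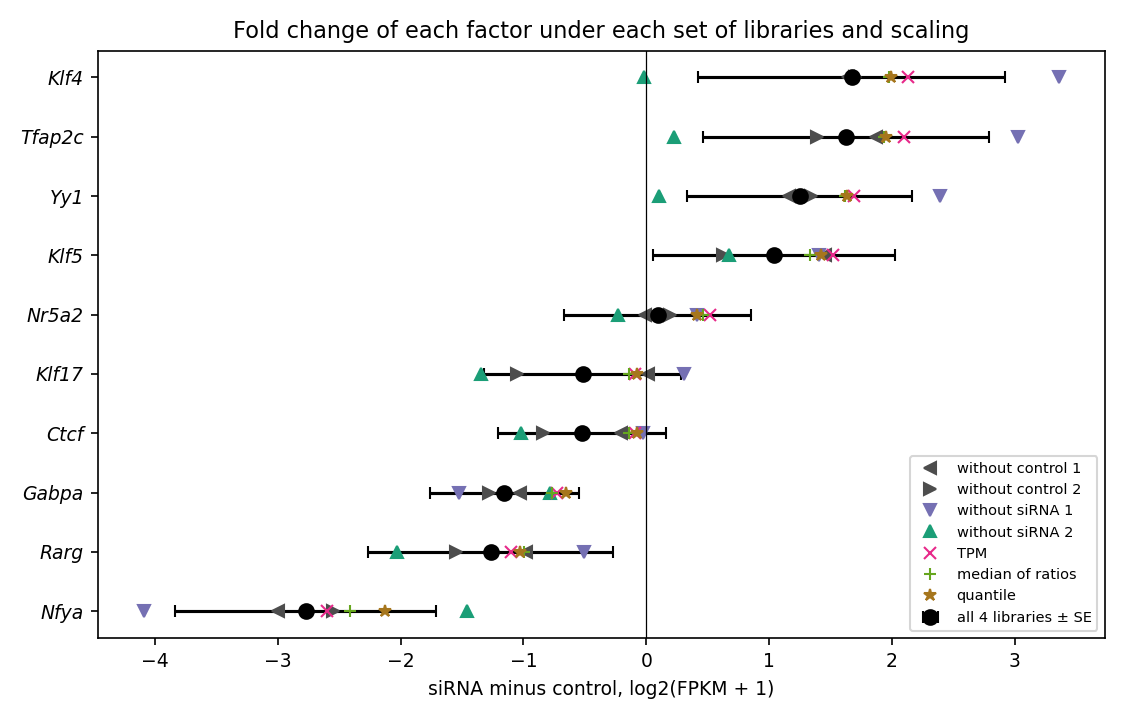
Fold change of each factor (siRNA minus control, log2(FPKM + 1)) with all 4 libraries (black, ± SE from limma), with 1 library left out (triangles) and under other scalings between libraries (other marks). Nfya, Gabpa, Rarg and Ctcf stay below 0 and Klf5, Tfap2c and Yy1 above 0 in every setting drawn. Ctcf comes as near to 0 as -0.03, without siRNA replicate 1. Klf4, Nr5a2 and Klf17 cross 0 when a library is left out.

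Related genes were read from lists that cover the partners and families of the 10 factors, and in no list did a gene pass over all genes in limma. Of the 12 tested partners and paralogs of Nfya, Gabpa, Yy1 and Tfap2c, 9 were under both controls in each siRNA library and 2 above, with a median log2 difference of -0.99. All tested genes had 30.0% below, 8.60% above and a median of -0.39. Ruvbl1 and Ruvbl2, AAA+ ATPases that work with Yy1 in the INO80 complex, had log2 fold changes of -1.74 and -2.41, and Yy2 of -1.52 (limma adjusted p = 0.745 each). Ruvbl1 stood at 43.0 and 87.9 FPKM in the controls, against 20.1 and 15.6 FPKM after siRNA. Over this list the median was -1.04 in the first siRNA library and -0.97 in the second. Single members differed between these libraries, as Ruvbl2 did with 9.57 and 0.667 FPKM.

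Of 14 tested genes of cohesin, its regulators and cofactors of Ctcf, 4 lay below and 2 above both controls in each siRNA library. The shares of all tested genes were 30.0% below and 8.60% above. This list had a median of -0.03, with -0.35 in the first siRNA library and 0.54 in the second. Cdca5 (sororin, which holds cohesin on chromatin), the cohesin deacetylase Hdac8 and the cohesin subunit Stag2 had log2 fold changes of -1.06, -1.80 and 1.49. Rad21, the cohesin ring subunit next to Ctcf on chromatin, stood at 34.7 and 30.9 FPKM in the controls, against 28.8 and 117 FPKM after siRNA. Its high value in siRNA replicate 2 was not shared by Ctcf.

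Other Klf and Sp genes (13 tested) had a median of 0.19, with -0.06 in the first siRNA library and 0.51 in the second. Of these, 0 lay below and 1 above both controls in each siRNA library. That gene, Klf2, stood at 1.57 and 2.40 FPKM in the controls, against 3.40 and 16.1 FPKM after siRNA, while Klf3 and Klf8 had log2 fold changes of -1.28 and -2.52 with overlapping groups. Of 14 tested nuclear receptors and genes of retinoic acid signalling, 2 were lower and 0 higher in each siRNA library. The median of that list was 0.31, with 0.05 in the first siRNA library and 0.57 in the second. Among its genes, Nr2c2, Nr1h3 and Nr6a1 had log2 fold changes of -1.43, -1.05 and 0.93. Rxrb, a partner of Rarg on DNA, was listed at 0 in every library, and Rxra stood at 0.338 to 1.83 FPKM. Of 7 tested other ETS factors, relatives of Gabpa, 2 lay below and 3 above, with Etv6, Elf1 and Elf3 at -1.82, 1.22 and 1.88. The ETS list had a median of 0.34, with 0.97 in the first siRNA library and -0.68 in the second. Beside the counts of these lists stand 30.0% of all tested genes below both controls and 8.60% above.

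The RNA polymerase II list held 35 tested genes, of which 17 lay below and 5 above both controls in each siRNA library. Its median was -0.21, with -0.72 in the first siRNA library and -0.06 in the second. Of the 12 subunit genes of the polymerase, 10 lay below, 1 above (Polr2a) and 1 overlapped (Polr2b). Polr2a stood at 0.473 and 0.552 FPKM in the controls, against 1.16 and 2.94 FPKM after siRNA. Over all tested genes 30.0% lay below and 8.60% above. Polr2d stood at 283 and 269.8 FPKM in the controls, against 115 and 15.5 FPKM after siRNA. Tbp, the TATA-binding protein, stood at 169 and 131 FPKM in the controls, against 77.9 and 6.45 FPKM after siRNA. The elongation factor gene Supt4a stood at 707 and 653 FPKM in the controls, against 259.8 and 69.8 FPKM after siRNA. Each of these 3 was lower in both siRNA libraries, and none passed the test (limma adjusted p = 0.745 each).

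Of the 9 tested lineage and epithelial genes that act after the 2-cell stage, 2 lay below and 1 above both controls in each siRNA library. Among all tested genes 30.0% lay below and 8.60% above. The median of this list was 0.29, with 0.23 in the first siRNA library and -0.83 in the second. Fgf4, a growth factor of the inner cell mass, stood at 65.9 and 89.5 FPKM in the controls, against 32.6 and 26.5 FPKM after siRNA, and Id2 had a log2 fold change of -1.31. Eomes stood at 0.0204 and 0.0573 FPKM in the controls, against 1.697 and 3.04 FPKM after siRNA (log2 fold change 1.67, adjusted p = 0.745 in limma).

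The genes whose values over the 4 libraries lay nearest to each factor, by Euclidean distance in log2(FPKM + 1), were Aurkaip1 and Ddx18 for Klf17 (0.14 and 0.30), Tmcc3 and Phf13 for Klf4 (0.33 and 0.46) and Tanc1 and Atg9a for Klf5 (0.41 and 0.42). They were Gfm2 and Zfp280d for Nr5a2 (0.10 and 0.26), Ears2 and Eri3 for Rarg (0.28 and 0.31) and Ankhd1 and Arf5 for Tfap2c (0.28 and 0.35). For the general factors they were Gm16026 and Cdk2ap1 for Gabpa (0.30 and 0.33), Glns-ps1 and Nutf2-ps1 for Nfya (0.27 and 0.37), Fam199x and Iqcf1 for Yy1 (0.25 and 0.34), and Wdr43 and Ccnb1ip1 for Ctcf (0.19 and 0.19). The likeness is over 4 libraries only. Tmcc3, for example, stood at 2.44 and 3.10 FPKM in the controls, against 2.83 and 46.2 FPKM after siRNA.

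Genes were also grouped by the letters in their promoters that these factors bind. A RefSeq promoter was found for 8184 of the tested genes, with a median log2 difference of -0.30 between the groups. The median was -0.28 over 3646 genes with the NF-Y letters, -0.36 over 1669 with the GABPA letters, -0.32 over 878 with the YY1 letters, -0.21 over 2124 with the KLF letters and -0.16 over 2215 with the TFAP2 letters. It was -0.57 over 114 genes with the Nr5a2 letters CAAGGTCA and -0.09 over 59 with the CTCF core motif. In the first and second siRNA library the median was -0.37 and -0.83 with the Nr5a2 letters, and -0.21 and 0.29 with the CTCF motif. Over all 8184 genes it was -0.30 and -0.35 in the same order. The retinoic acid direct repeat (2 copies of AGGTCA with 5 bases between them) was found in the promoter of 0 tested genes. The groups of genes overlap, since a promoter can hold several motifs, and no test was made.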

How the data were processed

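RNA of 4 libraries of late 2-cell mouse embryos was measured, 2 per group, grouped by the treatment label. Per the labels' protocols, cDNA primed with oligo(dT) was amplified at full length and read from both ends. The authors deposited FPKM values with a lower and an upper bound, per the file headers. Tools in the submitters' processing notes are Cufflinks 2.2.1 and Cuffdiff 2.2.1, STAR 2.7.3a, Trim Galore 0.6.5 and SAMtools 1.7, with build mm10 and no annotation release.

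Rows of 1 gene identifier were summed (50 identifiers had several rows). The 2 genes with a failed estimate were left out. Genes reaching 1 FPKM in 2 or more libraries entered a two-sided limma test (limma 3.58.1 under R 4.3.3, with an abundance trend) of log2(FPKM + 1), adjusted by Benjamini-Hochberg over all 12390 genes, at a threshold of 0.05. An exact permutation test of 2 against 2 libraries cannot give a p below 0.333.

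Implied fragments were read from the deposited bounds, taking the upper bound as 2 Poisson errors above FPKM. Of genes with 1 transcript and up to 30 fragments, 68.1% to 77.0% came out whole within 0.05. Totals come from genes with 1 transcript of at least 1000 bases and 5 fragments, and cover counting error only. Gene positions are those of the tables, and exons, lengths and overlaps are from GENCODE M21, in which Uqcc3, Yy1, Klf5 and Rarg have other versions.

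The text names the 10 factors, Uqcc3, the 3 genes with the smallest p in each list, and the 2 genes nearest to each factor. Genes named beyond these (subunits, markers, overlapping genes) were chosen with their values known. The factors, lists and markers were chosen with earlier results of these data known. A planned protein comparison was not made. Other scalings, filters and left-out libraries were tried, with results in the closing section.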

Additional observations from a re-analysis of the deposited data

How the results depend on the processing

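No gene passed in limma under a pseudocount of 0.1, no filter, a filter at 5 FPKM, TPM, median-of-ratios or quantile scaling, or without the abundance trend. With 1 library left out the count ranged from 0 to 1477, and that of the 10 factors from 0 to 4. Both higher counts came without siRNA replicate 1, where the lone siRNA library is assumed to vary like the controls. Factors below both controls in both siRNA libraries (3) ranged from 3 to 6 with 1 library left out, where fewer libraries have to agree. They numbered 6 without siRNA replicate 2, beside 48.3% of all tested genes. Without control replicate 2 they numbered 5, and the share of all tested genes was not taken there. They numbered 2 of 10 under TPM and quantile scaling and 3 under median-of-ratios scaling. Factors above both controls (2) ranged from 2 to 5 with 1 library left out (5 without siRNA replicate 1, beside 32.0% of all tested genes). They numbered 4, 5 and 5 under TPM, median-of-ratios and quantile scaling, beside 13.2%, 16.0% and 16.5% of all tested genes. With the filter at 5 FPKM the count was 1, since Klf4, Klf5, Rarg and Tfap2c were then not tested. Under these scalings the lower share of all tested genes was 21.4%, 19.8% and 18.7%. The cause of these moves was not tested.

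Over 12 alternatives the direction of the factors changed only when a library was left out: Klf17 ranged from -1.34 to 0.31, Klf4 from -0.0164 (without siRNA replicate 2) to 3.36 and Nr5a2 from -0.23 to 0.42. Among 22 other named genes it changed for Klf3, from -2.82 to 0.26. The adjusted p of the factors ranged from 0.0239 to 1.00 in limma, and 4 factors passed, each without siRNA replicate 1. The labels carry no replicate numbers, and replicates are numbered here in accession order. The names of the deposited tables carry the numbers 2 and 3 in both groups. A replicate block by those numbers was added after seeing the data, and 1 gene (the small nucleolar RNA gene Snord47) and 0 factors passed with it in limma. Same-numbered libraries deviated from their group means with a correlation of 0.06 across genes. As siRNA replicate 2 stood apart from all other libraries, this value cannot decide whether same-numbered libraries share a day or animals. Few implied fragments limit the values of Rarg in siRNA replicate 1 and Nfya in siRNA replicate 2 most.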

Other observations

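Some paralogs and a coactivator of the factors were also high in siRNA replicate 2 alone, and were chosen here after their values were seen. Klf11, a repressor of the Klf family, stood at 6.40 and 8.57 FPKM in controls and at 5.38 and 45.0 FPKM in the siRNA libraries (replicates 1 and 2). Tfap2e, a paralog of Tfap2c, stood at 5.45 and 1.01 FPKM in the controls, against 6.31 and 45.2 FPKM after siRNA. The coactivator gene Crebbp stood at 33.5 and 28.8 FPKM in the controls, against 15.9 and 263 FPKM after siRNA. Klf8 went the other way, with 15.5 and 95.7 FPKM in the controls, against 37.4 and 0.259 FPKM after siRNA. Dppa4, a chromatin factor of the 2-cell stage, stood at 80.6 FPKM in siRNA replicate 1 and at 181 FPKM in siRNA replicate 2, against 299.9 and 203 FPKM in controls.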
